A study of Mus musculus with 12 samples.

Results

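The constant region genes of the immunoglobulin chains were measured as RNA in whole tumours of YUMM2.1, a mouse melanoma line grown under the skin of immunocompetent C57BL/6J mice. The genes were chosen by name, 8 of the heavy chain (Ighm, Ighd, Ighg1, Ighg2b, Ighg2c, Ighg3, Igha and Ighe) and 2 of the light chains (Igkc and Iglc2), 10 of the 22195 genes with matched transcripts. Groups of 3 libraries each came from tumours treated with anti-B7-H3 plus anti-PD1 (the combination), with anti-B7-H3, with anti-PD1, or with isotype control IgG. All 4 groups share the line, the strain and the start of treatment at tumours of 20 to 50 mm3. B7-H3 is the checkpoint protein of Cd276, and PD1 is the checkpoint receptor of Pdcd1 on T cells. The labels do not say whether the libraries come from separate mice, so p-values measure the spread between these libraries. The line was carried as an allograft, and the tissue label names a skin tumour, so the RNA comes from tumour and host cells together.

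An antibody is built of paired heavy and light chains, and the constant gene of the heavy chain sets its class. B cells start with Ighm, for IgM, and Ighd, for IgD. Class switching deletes the DNA between a rearranged variable region and a downstream constant gene, so that IgG, IgE or IgA is made in place of IgM. Plasma cells, the end stage of the B cell line, drop most B cell surface proteins and devote much of their RNA to secreted antibody. In tumours, antibody-secreting cells occur in infiltrates and in lymphoid aggregates.

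The heavy chain constant genes lie in a row on the minus strand of chromosome 12 (GRCm38, GENCODE annotation), and transcription passes them in the order given here. Ighm lies at chr12:113418558-113422730 and Ighd at chr12:113406604-113416324. The 4 IgG genes follow, Ighg3 at chr12:113356224-113361232, Ighg1 at chr12:113325240-113330523, Ighg2b at chr12:113302965-113307933 and Ighg2c at chr12:113285325-113288932. Ighe lies at chr12:113269260-113273248 and Igha, the last, at chr12:113254830-113260236. The kappa light chain gene Igkc lies on the plus strand at chr6:70726435-70726966, and the lambda gene Iglc2 on the minus strand at chr16:19198396-19200351.

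IgM is made in a secreted and a membrane form from the same gene, and the choice lies in the 3′ end of the coding sequence. The ends are shown because the files count a transcript for each. The lower case bases belong to both transcripts, and the capitals to that form alone. The secreted end is exonic throughout (chr12:113420867-113420943, minus strand), and the membrane end is spliced from exons within chr12:113418826-113420943.
Ighm secreted: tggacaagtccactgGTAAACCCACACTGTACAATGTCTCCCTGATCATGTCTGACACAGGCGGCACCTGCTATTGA
Ighm membrane: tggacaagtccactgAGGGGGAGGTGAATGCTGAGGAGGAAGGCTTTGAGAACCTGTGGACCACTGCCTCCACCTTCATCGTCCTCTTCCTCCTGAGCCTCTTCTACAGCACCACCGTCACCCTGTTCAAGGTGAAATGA

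The 4 IgG genes resemble each other, and a read can be assigned to one of them only where they differ. Their hinge exons, which code for the flexible stretch that joins the paired heavy chains, are among the places where they do. The capitals mark in-frame cysteine codons, 4 in Ighg1 (chr12:113329844-113329882), 4 in Ighg2b (chr12:113307261-113307326), 3 in Ighg2c (chr12:113288263-113288325) and 1 in Ighg3 (chr12:113360529-113360576), all on the minus strand.
Ighg1 hinge: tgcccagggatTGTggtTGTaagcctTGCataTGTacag
Ighg2b hinge: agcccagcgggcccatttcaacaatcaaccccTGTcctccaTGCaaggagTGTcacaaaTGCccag
Ighg2c hinge: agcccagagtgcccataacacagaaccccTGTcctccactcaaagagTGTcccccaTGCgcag
Ighg3 hinge: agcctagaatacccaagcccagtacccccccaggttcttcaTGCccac

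Ighg2b and Ighg2c were the closest pair, with 85.8% identical bases over the coding sequence, and the other IgG pairs had 74.2% to 76.4%. Of the 31-base words of each gene, 19.4% of Ighg2b, 15.1% of Ighg2c, 7.65% of Ighg3 and 3.80% of Ighg1 occur in another constant gene. No word of Ighm, Ighd, Igha, Ighe or Igkc does. Iglc2 shared 32.99% of its words with another lambda gene, Iglc3, to which it is 96.2% identical. Values of the IgG genes and of Iglc2 are therefore less certain than those of Ighm and Igkc, because how shared reads were divided is not stated by the sources used here.

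Library totals ran from 4409772 to 5014931 reads in the combination, 3593110 to 3937727 after anti-B7-H3, 8099713 to 10527704 after anti-PD1 and 15585622 to 21298142 in isotype control. A set of 12 satellite-like genes took 31.4% ± 2.22, 0.145% ± 0.0680, 72.0% ± 2.99 and 92.5% ± 1.93 of matched reads in the same order (SD, n = 3 each), which left 1340782 to 1512937 other reads in isotype control libraries. Chemoreceptor genes, 1545 olfactory, vomeronasal and taste receptor genes with no expected role in a tumour, served as a gauge of background. They held 0.696 ± 0.0660, 0.0915 ± 0.00684, 5.25 ± 0.223 and 7.32 ± 0.504 reads per kilobase of coding length in the same order. The same rate times a gene's coding length is called its expected background below. Both satellite-like reads and background thus move with the groups, and changes with expected background subtracted are given beside the results they touch. Where subtraction left 0 reads in all 3 libraries of a group, no fold change with that group is given, because its size would be set by the prior count of the fit. The median chi-square over genes between libraries was 0.546 to 0.557 within anti-B7-H3, 0.558 to 0.583 within the combination, 0.624 to 0.658 within anti-PD1, 0.678 to 0.861 within isotype control and 2.04 to 14.5 between groups, where counting noise alone gives 0.455. Each pair of libraries of a group differed by more than counting noise in its summed chi-square (1.37 to 3.06 per gene, largest p = 9.61e-162), so all were counted, but this does not show that they come from separate tumours.

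The 10 genes together took 0.156% ± 0.00164 of the reads outside satellite-like genes in the combination, 0.888% ± 0.00562 after anti-B7-H3, 0.0208% ± 0.00187 after anti-PD1 and 0.0122% ± 0.000870 in isotype control (SD, n = 3 each). The ranges of the 4 groups did not overlap, with 0.154% to 0.157%, 0.882% to 0.893%, 0.0189% to 0.0226% and 0.0116% to 0.0132% in the same order. Immunoglobulin RNA was thus most abundant after anti-B7-H3 alone, and the combination lay between anti-B7-H3 and the other groups. In tumour tissue, more antibody-producing cells and more RNA per cell cannot be told apart.

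Ighm carried most of this signal. Its estimated reads were 3678, 3372 and 4185 in combination libraries, 26657, 23954 and 24757 in anti-B7-H3 libraries, 461, 415 and 361 in anti-PD1 libraries and 84, 63 and 83 in isotype control libraries. The 4 groups did not overlap in these counts, which are not scaled for depth. Isotype control libraries had the most reads in total but the fewest outside satellite-like genes. The latter were 1340782 to 1512937 reads, against 3570258 to 3918163 after anti-B7-H3. Expected background over 3 libraries was 2.99 reads in the combination, 0.393 after anti-B7-H3, 22.5 after anti-PD1 and 31.4 in isotype control, against 11235, 75368, 1237 and 230 reads counted.

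In counts per 1e+06 of the scaled library (CPM), Ighm averaged 339 ± 5.38 in the combination, 1983 ± 11.7 after anti-B7-H3, 51.4 ± 3.58 after anti-PD1 and 27.3 ± 3.05 in isotype control (SD, n = 3 each). The scaling factors were 2.31 to 2.44, 3.39 to 3.41, 0.761 to 0.944 and 0.118 to 0.209 in the same order, so scaled CPM are not reads per 1e+06 counted. The 10 genes summed to 2613 scaled CPM after anti-B7-H3 and 61.5 in isotype control. Their shares outside satellite-like genes, 0.888% and 0.0122%, stood further apart. The log2 fold change of Ighm in the combination over isotype control was 3.63 ± 0.0779 (SE, adjusted p = 4.45e-50). The change of the combination over anti-B7-H3 was -2.55 ± 0.0504 (adjusted p = 4.36e-52), so adding anti-PD1 to anti-B7-H3 went with less Ighm. Against anti-PD1 alone the combination was higher by 2.72 ± 0.0585 (adjusted p = 4.76e-49), and anti-B7-H3 was higher than anti-PD1 by 5.27 (adjusted p = 4.34e-67). Anti-PD1 alone raised Ighm by 0.92 ± 0.0944 over isotype control (adjusted p = 1.02e-12). With expected background subtracted, Ighm was 3.04 higher in the combination and 5.56 higher in anti-B7-H3 than in isotype control, against 6.18 without that step in anti-B7-H3, and every one of these calls was kept.

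**Figure D1:**
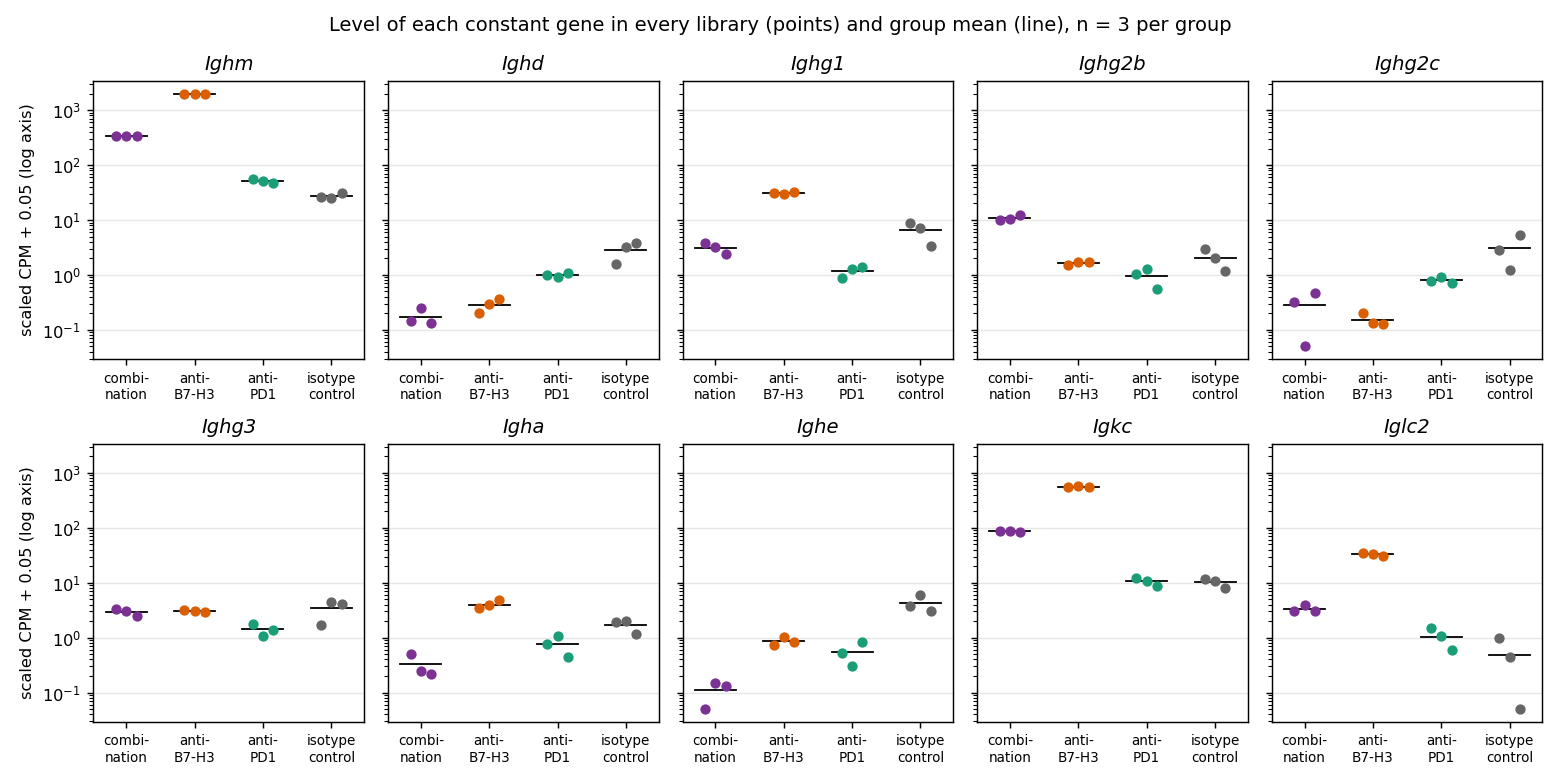
Level of each of the 10 genes in every library, as scaled CPM plus 0.05 on a log axis, with 1 point per library and a line at the mean of each group of 3. Ighm lies at a mean of 339 CPM in the combination, 1983 after anti-B7-H3, 51.4 after anti-PD1 and 27.3 in isotype control, while Ighg2b is highest in the combination.

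Ighm reads came mostly from the secreted transcript shown above. The secreted form took 98.6% ± 0.934 of Ighm reads in the combination, 98.7% ± 0.350 after anti-B7-H3, 94.7% ± 4.06 after anti-PD1 and 79.8% ± 16.97 in isotype control (SD, n = 3 each). Summed over libraries, 11080 reads were secreted and 155 membrane in the combination, 74433 and 935 in anti-B7-H3, 1175 and 61.8 in anti-PD1, and 187 and 42.5 in isotype control. The shares in isotype control were 91.9%, 60.4% and 87.1%. The second of these had a Wilson 95% interval of 48.0% to 71.5%, which like all counting intervals here covers counting error only. The combination and anti-B7-H3 overlapped in their secreted share, and the lowest shares stood in the groups with the fewest reads over background.

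Ighg2b was read in its secreted form too where it had reads over background. All Ighg2b reads of the combination (109, 105 and 150) and of anti-B7-H3 (20, 20 and 21) were assigned to the secreted form. Of the anti-PD1 libraries, none had a secreted Ighg2b read among 8.34, 10 and 3.75 reads, and the isotype control libraries had 2.11 of 9.58, 0 of 5 and 3 of 3.

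The joining chain Jchain, which links IgM and IgA into polymers, followed Ighm. It had 180, 182 and 218 reads in combination libraries, 1443, 1294 and 1295 in anti-B7-H3 libraries, 17, 17 and 17.6 in anti-PD1 libraries and 2, 6 and 2 in isotype control libraries. The combination was 3.87 ± 0.266 higher than isotype control on the log2 scale (adjusted p = 5.13e-21, and 4.65 without isotype control replicate 2) and lower than anti-B7-H3, with a log2 change of -2.60 ± 0.0693 (adjusted p = 7.65e-44). Per length, the ratio of Jchain to Ighm was 0.189 ± 0.0107 in the combination, 0.192 ± 0.00413 after anti-B7-H3, 0.164 ± 0.0227 after anti-PD1 and 0.194 ± 0.169 in isotype control, and these ratios overlapped between groups. In isotype control, 10 Jchain reads stood beside an expected background of 10.5.

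The kappa light chain Igkc pairs with any heavy chain and moved with Ighm. It had 951, 878 and 1012 reads in combination libraries, 7350, 6895 and 6886 in anti-B7-H3 libraries, 104, 85.8 and 66 in anti-PD1 libraries and 38, 27 and 21 in isotype control libraries. Combination and anti-B7-H3 libraries stood apart from all others, with 85.9 ± 2.60 and 556 ± 11.7 CPM. Anti-PD1 and isotype control overlapped, with 10.6 ± 1.82 and 10.1 ± 2.06 CPM (SD, n = 3).

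The combination exceeded isotype control by 3.07 ± 0.1105 on the log2 scale (adjusted p = 1.93e-36, and 2.39 with background subtracted) and anti-PD1 by 3.01 ± 0.0793 (adjusted p = 4.22e-44). It was lower than anti-B7-H3, with a log2 change of -2.70 ± 0.0488 (adjusted p = 2.05e-54). Between anti-PD1 and isotype control Igkc was not called (0.06 ± 0.163, adjusted p = 0.807), and with background subtracted the change was -0.43 and also not called. Expected background of Igkc was 5.11 reads after anti-PD1 and 7.11 in isotype control, against 256 and 86 reads counted.

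The lambda gene Iglc2 was the less abundant light chain. It had 33, 39 and 37 reads in combination libraries, 459, 405 and 390 in anti-B7-H3 libraries, 12, 8 and 4.13 in anti-PD1 libraries and 3, 1 and 0 in isotype control libraries. The isotype control sum of 4 reads lay under the expected background of 6.98. Against anti-B7-H3 the combination was lower (-3.32 ± 0.128, adjusted p = 3.19e-34), and against isotype control it was higher (2.76 ± 0.530, adjusted p = 7.85e-06, and 3.98 without isotype control replicate 1). Subtraction of background left 0 Iglc2 reads in isotype control and 109 in the combination. Iglc1 and Iglc3, the other lambda genes with reads, went the same way: their log2 changes in the combination over anti-B7-H3 were -2.47 ± 0.155 (adjusted p = 1.33e-22) and -2.79 ± 0.218 (adjusted p = 5.51e-18).

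Per length, kappa made up 96.2% ± 0.494 of Igkc plus Iglc2 in the combination, 94.2% ± 0.272 after anti-B7-H3, 91.4% ± 2.26 after anti-PD1 and 96.2% ± 3.79 in isotype control (SD, n = 3 each). A difference between the 4 groups was not called for this share (exact permutation test of the sum of squares between groups, p = 0.0774, adjusted over 4 shares 0.0774). With the treated groups alone the adjusted p was 0.00357, and without isotype control replicate 1 it was 0.00305, and the isotype control share rests on 4 Iglc2 reads. With all 3 lambda genes the kappa share was 91.3% in the combination, 89.9% after anti-B7-H3, 77.4% after anti-PD1 and 83.8% in isotype control. The ratio of light to heavy chain level per length was 1.73 ± 0.0613, 1.99 ± 0.0418, 1.67 ± 0.193 and 1.58 ± 0.424 in the same order.

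Among the 4 IgG genes, Ighg2b and Ighg1 took opposite places in the combination and anti-B7-H3. Ighg2b, whose product binds the activating Fc receptor of Fcgr4 in mice, had 109, 105 and 150 reads in combination libraries, 20, 20 and 21 in anti-B7-H3 libraries, 8.34, 10 and 3.75 in anti-PD1 libraries and 9.58, 5 and 3 in isotype control libraries. Combination libraries were above all others. The level was 10.9 ± 1.20 CPM in the combination, 1.61 ± 0.0964 after anti-B7-H3, 0.913 ± 0.387 after anti-PD1 and 2.03 ± 0.924 in isotype control (SD, n = 3 each).

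The combination held 2.76 ± 0.197 more Ighg2b than anti-B7-H3 on the log2 scale (adjusted p = 6.92e-20), and 2.77 with background subtracted. The ratio of its scaled reads to those of anti-B7-H3 was 6.85, with a 95% counting interval of 5.21 to 9.13. Against anti-PD1 the combination was higher by 3.56 ± 0.249 (adjusted p = 2.38e-20) and against isotype control by 2.35 ± 0.289 (adjusted p = 1.03e-10). With background subtracted the change against anti-PD1 was 5.39, over 5 anti-PD1 reads left. Anti-B7-H3 and isotype control were not called apart (-0.41, adjusted p = 0.374), but 17.6 isotype control reads lay under an expected background of 26.7. Subtraction left 361 Ighg2b reads in the combination, 61 in anti-B7-H3 and 0 in isotype control. Anti-PD1 had 22.1 Ighg2b reads against an expected 19.2, and its call below isotype control (-1.21, adjusted p = 0.0322) rests on single libraries. It was no longer called without replicate 1 (-0.75) or 2 (-1.25) of isotype control, or without replicate 1 (-1.24) or 3 (-0.96) of anti-PD1, with adjusted p from 0.0516 to 0.367.

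Ighg1, the IgG gene that interleukin-4 favours in mouse B cells, went the other way. It had 40.2, 32 and 28.2 reads in combination libraries, 406, 353 and 404 in anti-B7-H3 libraries, 7, 10 and 10 in anti-PD1 libraries and 28, 18 and 9 in isotype control libraries. Anti-B7-H3 libraries were above all others. The level was 3.07 ± 0.709 CPM in the combination and 30.6 ± 1.52 CPM in anti-B7-H3 (SD, n = 3 each). The log2 change of the combination over anti-B7-H3 was -3.33 ± 0.136 (adjusted p = 6.05e-33).

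Ighg1 was 2.23 ± 0.176 higher in anti-B7-H3 than in isotype control (adjusted p = 1.97e-18). It was lower than isotype control in the combination (-1.11 ± 0.265, adjusted p = 0.00027) and in anti-PD1 (-2.52 ± 0.337, adjusted p = 4.61e-09, and -3.94 with background subtracted), where isotype control held 55 reads against an expected background of 25.9. Subtraction left 8 Ighg1 reads in anti-PD1 and 30 in isotype control, whose replicate 3 had 9 reads against an expected 8.21. The ratio of Ighg1 to Ighg2b per length was 0.298 ± 0.0980 in the combination, 19.7 ± 1.19 after anti-B7-H3, 1.61 ± 1.14 after anti-PD1 and 3.24 ± 0.894 in isotype control (SD, n = 3 each). No anti-B7-H3 library overlapped a combination library in this ratio.

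Ighg3, a T-cell-independent IgG of the mouse, had 35, 31 and 29 reads in combination libraries, 41, 37.1 and 36.1 in anti-B7-H3 libraries, 14.7, 7.99 and 10.2 in anti-PD1 libraries and 5.42, 11 and 11 in isotype control libraries. The level was 2.89 ± 0.455 CPM in the combination and 3.004 ± 0.112 CPM in anti-B7-H3, and the groups overlapped. The change between them was -0.06 ± 0.244 (adjusted p = 0.878), and the ratio of scaled reads was 0.956 with a counting interval of 0.720 to 1.27, which leaves out changes of the size seen for Ighg1 and Ighg2b. Both were called above anti-PD1, the combination by 1.06 ± 0.308 (adjusted p = 0.00325) and anti-B7-H3 by 1.12 (adjusted p = 0.00095), or by 2.01 and 2.09 with background subtracted. Anti-PD1 and isotype control had 32.9 and 27.4 Ighg3 reads beside expected backgrounds of 18.9 and 26.3.

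Ighg2c, the gene that C57BL/6 mice carry in place of Ighg2a and that interferon-gamma favours, had few reads in every group and did not pass the filter on low counts. It had 3, 0 and 5.03 reads in combination libraries, 2, 1 and 1 in anti-B7-H3 libraries, 6, 7 and 5 in anti-PD1 libraries and 9, 3 and 14 in isotype control libraries. Expected background summed to 2.54, 0.333, 19.1 and 26.7 reads in the same order. The scaled ratio of the combination to anti-B7-H3 was 2.29, with a counting interval of 0.615 to 10.4 that includes 1.

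**Figure D2:**
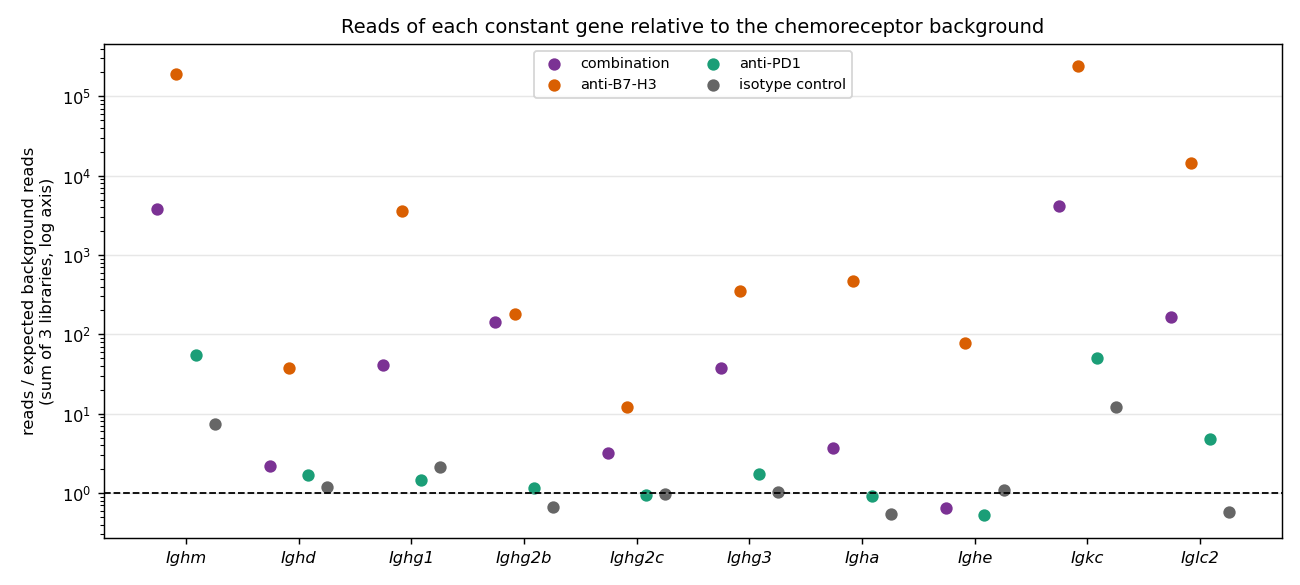
Reads of each gene divided by its expected background in each group, both summed over 3 libraries, on a log axis with a dashed line at 1. Ighm, Igkc, Iglc2, Ighg1, Ighg2b and Ighg3 lie far above the line in the combination and anti-B7-H3, while in isotype control the genes other than Ighm (7.32), Igkc (12.1) and Ighg1 (2.12) lie between 0.545 and 1.20.

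In isotype control libraries, Ighm reads were 7.32 times, Igkc reads 12.1 times and Ighg1 reads 2.12 times expected background, and the other genes 0.545 to 1.20 times. In anti-PD1 libraries Ighm stood at 54.9, Igkc at 50.1 and Iglc2 at 4.82 times, and the others at 0.521 to 1.74 times. Fold changes of those other genes against anti-PD1 or isotype control therefore have reads at background level on one side. The comparison of the combination with anti-B7-H3 does not have this limit for genes with many reads, and every member tested kept its direction there with background subtracted, Ighe with 0 reads left in the combination.

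Igha, the IgA gene used mainly at mucosal surfaces, had 5, 2 and 2 reads in combination libraries, 45, 46 and 59 in anti-B7-H3 libraries, 6, 8 and 3 in anti-PD1 libraries and 6, 5 and 3 in isotype control libraries. Anti-B7-H3 libraries were above all others. The change of the combination over anti-B7-H3 was -3.79 ± 0.397 (adjusted p = 8.99e-13). Anti-B7-H3 was called above isotype control (1.24 ± 0.402, adjusted p = 0.00551), and the combination below it (-2.55 ± 0.609, adjusted p = 0.000256). These folds rest on 14 isotype control reads, which lay under an expected background of 25.7. Subtraction left 6 Igha reads in the combination, 150 after anti-B7-H3, 2 after anti-PD1 and 0 in isotype control.

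Ighe, the IgE gene, whose product arms mast cells, had 0, 1 and 1 reads in combination libraries, 9, 12 and 10 in anti-B7-H3 libraries, 4, 2 and 6 in anti-PD1 libraries and 12, 15 and 8 in isotype control libraries. Expected background summed to 3.05, 0.401, 23 and 32.1 reads in the same order, so that the 31 anti-B7-H3 reads alone stood well over it. The scaled ratio of the combination to anti-B7-H3 was 0.0740, with a counting interval of 0.00858 to 0.291 (log2 change in the fit -3.47 ± 0.731, adjusted p = 6.97e-05). Subtraction of background left 0 Ighe reads in the combination and 31 in anti-B7-H3. The fit also called Ighe lower than isotype control in anti-B7-H3 (-2.33 ± 0.436, adjusted p = 3.52e-06), but with background subtracted this became -0.40 (adjusted p = 0.763).

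Ighd, which naive B cells express beside Ighm, had 1, 2 and 1 reads in combination libraries, 2, 3 and 4 in anti-B7-H3 libraries, 8, 7 and 8 in anti-PD1 libraries and 5, 8 and 10 in isotype control libraries, and did not pass the filter. The scaled ratio of the combination to anti-B7-H3 was 0.510, with a counting interval of 0.115 to 1.83. Expected background summed to 1.83, 0.240, 13.8 and 19.2 reads in the same order. Beside 75368 Ighm reads in anti-B7-H3 libraries, Ighd had 9.

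**Figure D3:**
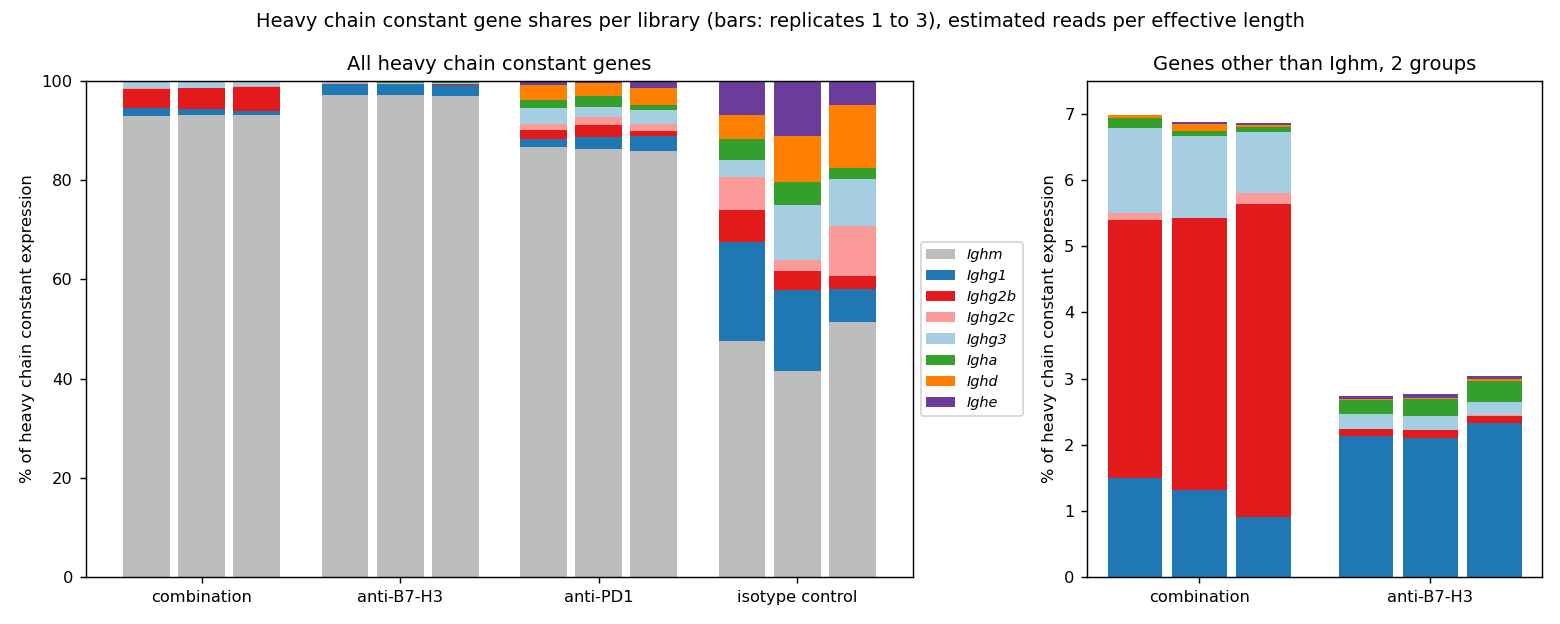
Shares of the 8 heavy chain genes per length in each library as stacked bars, for all genes in the 4 groups on the left and for the genes other than Ighm in the combination and anti-B7-H3 on the right. Ighg2b is the largest share after Ighm in combination libraries (4.25% on average) and Ighg1 in anti-B7-H3 libraries (2.19%).

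Shares within the heavy chain genes were taken per length and do not depend on how libraries are scaled. Ighm made up 93.0%, 93.1% and 93.1% in combination libraries, 97.3%, 97.2% and 97.0% in anti-B7-H3 libraries, 86.7%, 86.3% and 85.9% in anti-PD1 libraries and 47.5%, 41.5% and 51.4% in isotype control libraries. The 4 groups did not overlap. The combination was 4.07 percentage points below anti-B7-H3 (difference -4.07). In an exact permutation test of the sum of squares between the 4 groups, p was 6.49e-05, the smallest that 369600 arrangements can give (adjusted over 4 shares 0.00013).

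The IgG genes together made up 6.73% ± 0.0616 in the combination, 2.51% ± 0.119 after anti-B7-H3, 8.25% ± 0.316 after anti-PD1 and 32.98% ± 3.91 in isotype control (SD, n = 3 each, exact permutation p = 6.49e-05, adjusted 0.00013). Again no groups overlapped. With background subtracted, the IgG share was 6.63% in the combination, 2.51% after anti-B7-H3, 2.63% ± 0.268 after anti-PD1 and 19.3% ± 6.47 in isotype control, so most of the IgG share of anti-PD1 libraries was at background level. The Ighm share then was 93.3%, 97.2%, 95.9% ± 0.346 and 74.1% ± 5.86 in the same order. Setting 3 libraries against 3 by permutation cannot give a p under 0.10, so no pair of groups was tested alone.

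Within IgG, Ighg2b held 4.25% ± 0.432 of heavy chain expression in the combination and 0.111% ± 0.00711 in anti-B7-H3. Ighg1 held 1.24% ± 0.302 in the combination and 2.19% ± 0.120 in anti-B7-H3. Ighg3 held 1.15% ± 0.189 in the combination and 0.207% ± 0.00705 in anti-B7-H3, while its level was not called different between them. Igha held 0.0962% ± 0.0480 in the combination and 0.265% ± 0.0479 after anti-B7-H3, against 1.63% ± 0.664 after anti-PD1 and 3.69% ± 1.28 in isotype control (exact permutation p over 4 groups 0.000714, adjusted 0.000952). With background subtracted the Igha share was 0 in all isotype control libraries, and the adjusted p was 0.175.

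Of the 8 members that passed the filter, 4 were called higher and 3 lower in the combination than in isotype control, where 57.3% of all 13478 genes tested were called (27.8% higher and 29.5% lower). In anti-B7-H3 against isotype control 5 were higher and 1 lower (64.1% of all genes called, 30.8% higher and 33.3% lower), and in anti-PD1 against isotype control 1 was higher and 4 lower (38.3% called, 17.5% higher and 20.9% lower). Ighm was the member called higher in anti-PD1. Without isotype control replicate 2 the calls of Ighg2b (-1.25) and Ighg3 (-0.98, as reported -1.22, adjusted p = 0.0113) in anti-PD1 were lost, leaving 3, and that of Ighg3 also without isotype control replicate 3 (-1.04). In a fit of only anti-PD1 and isotype control, 3 members passed the filter, with 1 called higher and 1 lower. The other members passed it only in the fit of all 4 groups. Igha, Ighe, Ighg2b and Ighg3 stood at 0.521 to 1.74 times expected background in anti-PD1 and isotype control. In a fit of only the combination and isotype control, 6 members passed, with 4 called higher and 1 lower. The 3 comparisons with isotype control share its libraries. The median log2 change of the members was 1.095 in the combination, 1.74 in anti-B7-H3 and -1.21 in anti-PD1, beside medians of -0.01, -0.04 and -0.04 over all genes.

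In the combination against anti-B7-H3, 6 members were lower and only Ighg2b was higher (39% of all genes called, 19.8% higher and 19.1% lower), with a member median of -3.01 beside 0.01 over all genes. In a fit of only the combination and anti-B7-H3, 7 members passed the filter, with 1 called higher and 5 lower. In the combination against anti-PD1, 6 were higher and 2, Igha and Ighe, were lower (46.5% called, 23.1% higher and 23.4% lower), with a median of 1.56. The Igha call there (-1.33, adjusted p = 0.0486) was lost with the replicate numbers as a block (adjusted p = 0.0578), by the DESeq2 Wald test (-1.40, adjusted p = 0.0706) and without combination replicate 2 (-1.14) or 3 (-1.02), any anti-B7-H3 replicate (-1.30) or anti-PD1 replicate 1 (-1.34) or 2 (-1.02). With background subtracted the Igha change turned to higher in the combination, with 6 Igha reads left there and 2 in anti-PD1. The Ighe call (-2.78 ± 0.858, adjusted p = 0.0055) was lost without anti-PD1 replicate 3 (-2.36, adjusted p = 0.0518), and subtraction of background left 0 Ighe reads in both groups. In a fit of only the combination and anti-PD1, 6 members passed the filter, with 6 called higher and 0 lower. In anti-B7-H3 against anti-PD1, 7 were higher and none was lower (62% called, 30.4% higher and 31.6% lower), with a median of 3.602. Ighe was not called in it (0.69, adjusted p = 0.255). The Ighg2b call in it (0.80, adjusted p = 0.0402) was lost by the DESeq2 Wald test (adjusted p = 0.066) and without anti-B7-H3 replicate 2 (0.80) or 3 (0.78) or anti-PD1 replicate 1 (0.81) or 3 (0.53), with adjusted p from 0.0639 to 0.229.

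**Figure D4:**
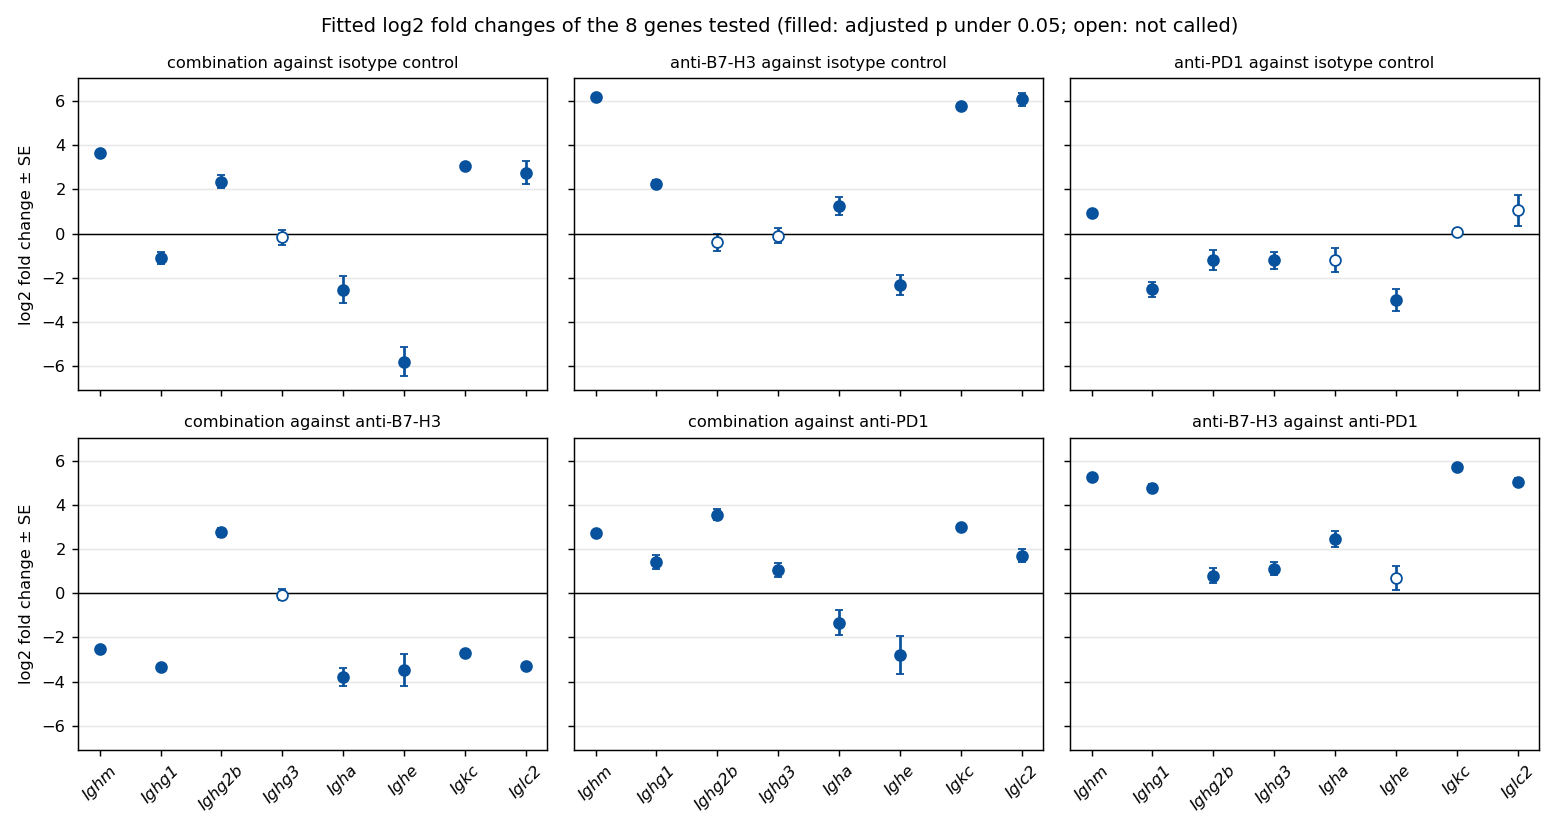
Log2 fold change with its standard error of the 8 members tested, 1 panel for each of 6 comparisons between groups of 3 libraries, with filled points for an adjusted p under 0.05. In the combination against anti-B7-H3 every called member is below 0 except Ighg2b at 2.76.

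The design also asks whether both antibodies together differ from what the log2 changes of each alone add up to. This interaction was called for 6 of the 8 members, 2 positive and 4 negative, where 36.4% of all genes were called (19.1% positive and 17.3% negative). Ighm fell short of the sum by 3.46 on the log2 scale (-3.46 ± 0.101, adjusted p = 3.29e-41), and Igkc (-2.76 ± 0.158, adjusted p = 2.32e-24) and Iglc2 (-4.37 ± 0.633, adjusted p = 3.85e-08, and -5.60 without isotype control replicate 1) did so too. Ighg2b exceeded the sum by 3.96 ± 0.550 (adjusted p = 1.27e-08).

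Igha (-2.58 ± 0.705, adjusted p = 0.00247, and -3.17 without combination replicate 1) and Ighg3 (1.16 ± 0.465, adjusted p = 0.0428) completed the calls, and Ighg1 was not called (-0.81, adjusted p = 0.107; -1.12 and called without isotype control replicate 1). The Ighg3 call was lost without combination replicate 1 (1.04) or 2 (1.08), any anti-B7-H3 replicate (1.09 to 1.14), anti-PD1 replicate 2 (0.997) or 3 (1.15), or isotype control replicate 2 (0.93) or 3 (0.98), and by the DESeq2 Wald test (1.18, adjusted p = 0.059). With background subtracted, Ighm (-3.04) and Igkc (-2.24) kept the call and Ighg3 (0.53, adjusted p = 0.735) lost it. Iglc2, Ighg2b and Igha had 0 reads left in isotype control, so that their interactions have no value with background subtracted. The interactions of these 3 genes as reported thus rest on isotype control reads at 0.545 to 0.658 times expected background.

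Genes that mark antibody-secreting cells were set beside the members. Of 18 plasma cell genes tested, 16 were called lower and none higher in the combination than in anti-B7-H3 (19.1% and 19.8% of all genes). Against isotype control, 8 were higher and 5 lower in the combination (27.8% and 29.5% of all genes). In anti-B7-H3, 11 were higher and 1 lower than in isotype control (30.8% and 33.3% of all genes). Mzb1, a chaperone of plasma cells, had 35 reads in the combination, 288 after anti-B7-H3, 11 after anti-PD1 and 6 in isotype control, and was lower in the combination than in anti-B7-H3 (-2.82 ± 0.248, adjusted p = 9.07e-16). Irf4, a factor of plasma cell differentiation, was 2.49 ± 0.317 higher in anti-B7-H3 than in isotype control (adjusted p = 2.10e-10, and 3.44 without isotype control replicate 2). Subtraction of background left 0 isotype control reads for 5 plasma cell genes, Irf4 and Mzb1 among them. Sdc1, which tumour and epithelial cells express as well, had an interaction of -1.22 ± 0.124 (adjusted p = 4.34e-13).

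Of the markers of earlier B cells, Cd79a and Ms4a1 had few reads beside Ighm. Cd79a, a signalling chain of the B cell receptor, had 14 reads in the combination, 50 after anti-B7-H3, 23 after anti-PD1 and 18 in isotype control, beside expected backgrounds of 1.38, 0.182, 10.4 and 14.6. Ms4a1, which codes for CD20, had 10, 37, 22 and 23 reads in the same order. In anti-B7-H3 libraries these markers had 37 to 50 reads, beside 75368 Ighm reads. They do not speak for all 19 mature B cell genes listed. Together those averaged 641 reads per anti-B7-H3 library, against an expected background of 2.51.

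**Figure D5:**
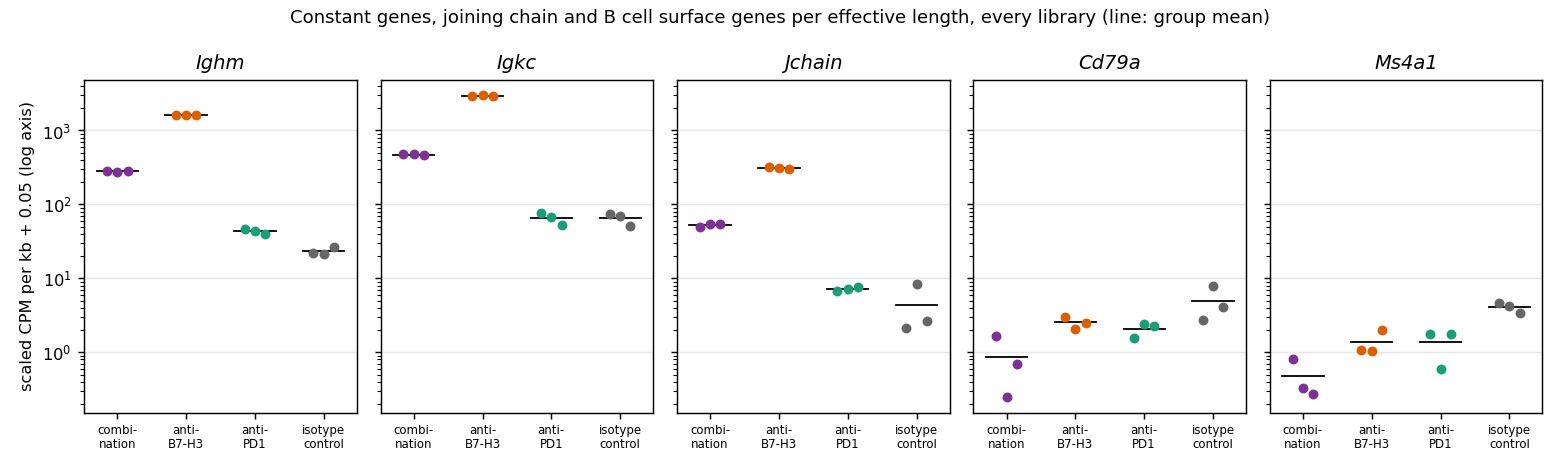
Level per kilobase of Ighm, Igkc, Jchain, Cd79a and Ms4a1 in every library, as scaled CPM per kilobase plus 0.05 on a log axis, with lines at group means. The antibody and joining chain genes separate the combination and anti-B7-H3 from the other groups, and Cd79a and Ms4a1 stay below Ighm and Igkc in all 4 groups.

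Of 11 mature B cell genes tested, 9 were called lower and none higher in the combination than in anti-B7-H3 (19.1% and 19.8% of all genes). Cd79b was at -2.10 ± 0.436 (adjusted p = 5.89e-05) and Cd22, an inhibitory B cell lectin, at -1.34 ± 0.159 (adjusted p = 6.71e-11). Ms4a1 was called at -1.64 ± 0.530 (adjusted p = 0.00963), a call lost without anti-B7-H3 replicate 3 (-1.24) or without combination replicate 2 (-1.42) or 3 (-1.32), while without combination replicate 1 the change was -2.35. Against isotype control none was higher and 6 were lower in the combination (27.8% and 29.5% of all genes), and 3 were higher and 3 lower in anti-B7-H3 (30.8% and 33.3%). With background subtracted these counts were 3 higher and 2 lower in the combination, and 5 higher and 1 lower in anti-B7-H3, 1 of these 5 over 0 isotype control reads. The summed level of the listed genes was 23.9 to 26.3 CPM in the combination, 48.6 to 52.1 after anti-B7-H3, 22.9 to 25.6 after anti-PD1 and 51.4 to 68.8 in isotype control. Isotype control libraries averaged 173 reads of these genes against an expected background of 200.9.

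Genes of class switching and of the germinal centre were called in both directions. Of 11 genes of the list tested, 3 were higher and 2 lower in the combination than in anti-B7-H3, where 39% of all genes were called, with Msh6, a mismatch repair gene that dividing cells use as well, at 0.50 ± 0.0987 (adjusted p = 2.11e-05). None was higher than isotype control in the combination or anti-B7-H3 (27.8% and 30.8% of all genes), and 2 and 4 were lower (29.5% and 33.3%). The uracil glycosylase Ung was among them, at -1.15 ± 0.369 in the combination (adjusted p = 0.00611) and -1.62 ± 0.381 in anti-B7-H3 (adjusted p = 0.000166). The Ung calls were lost with background subtracted (-0.82 and -1.24), and that of the combination also without isotype control replicate 1 (-0.69).

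Of 10 cytokine and receptor genes that bear on switching, none was higher and 8 were lower in the combination than in anti-B7-H3 (19.8% and 19.1% of all genes). Il13, a type 2 cytokine with 4 reads in the combination and 30 in anti-B7-H3, was lower (-2.58 ± 0.695, adjusted p = 0.00181, and -3.69 without combination replicate 3). Il4ra, the receptor chain for interleukin-4 and interleukin-13, was 1.91 ± 0.0856 higher in the combination than in isotype control (adjusted p = 7.58e-31) and 2.64 ± 0.0795 higher in anti-B7-H3 (adjusted p = 1.73e-41). Tgfb1, whose product favours Igha and Ighg2b switching in mouse B cells, was 1.47 ± 0.11 higher in the combination (adjusted p = 2.52e-19) and 2.06 ± 0.103 higher in anti-B7-H3 (adjusted p = 1.55e-28) than in isotype control.

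Receptors that bind the antibody constant regions rose with both anti-B7-H3 arms. All 6 tested were called higher than isotype control in the combination and in anti-B7-H3, 4 were higher in anti-PD1 (1 with background subtracted), and all 6 were lower in the combination than in anti-B7-H3. Over all genes, 27.8%, 30.8% and 17.5% were higher than isotype control in the same order. In the combination 19.1% of all genes were lower than in anti-B7-H3. Fcgr4, an activating receptor for IgG2 in mice, had 216 reads in the combination, 516 after anti-B7-H3, 29 after anti-PD1 and 17 in isotype control, and was lower in the combination than in anti-B7-H3 (-1.05 ± 0.135, adjusted p = 8.82e-10). Fcgr2b, the inhibitory IgG receptor, was 1.76 ± 0.0815 higher in the combination (adjusted p = 4.67e-30) and 2.68 ± 0.0747 higher in anti-B7-H3 (adjusted p = 1.50e-43) than in isotype control, or 1.098 and 1.996 with background subtracted.

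Macrophages carry these receptors as well, and their genes moved with them. All 11 macrophage genes tested were called higher than isotype control in the combination and in anti-B7-H3, and 10 were lower in the combination than in anti-B7-H3, with Mrc1 at 2.37 ± 0.0646 in the combination (adjusted p = 1.08e-43) and 3.41 ± 0.0628 in anti-B7-H3 (adjusted p = 8.13e-55) over isotype control. The summed level of the list was 1367 to 1370 CPM in the combination, 2730 to 2749 after anti-B7-H3, 479 to 509 after anti-PD1 and 349 to 370 in isotype control. Of 13 T cell genes, 2 were called higher and 3 lower in the combination than in isotype control. In anti-B7-H3, 8 were higher and 1 lower. Over all genes, 27.8% and 29.5% were so called in the combination and 30.8% and 33.3% in anti-B7-H3. Of all genes, 19.1% were lower in the combination than in anti-B7-H3. Summed levels of the T cell genes were 20.2 to 21.5, 43.4 to 46.8, 7.82 to 11.3 and 24.1 to 27.5 CPM in the order of groups above. Isotype control libraries averaged 73.3 reads of T cell genes against an expected background of 77.6, and anti-PD1 libraries 73.7 against 55.7. Subtraction of background left 0 isotype control reads for 5 of these genes. The part of macrophages and T cells in the immunoglobulin differences was not tested.

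Genes of lymph node stroma and vessels, which a lymph node taken with a tumour would bring, were read as a check on the tissue. Madcam1, a vessel addressin of lymphoid tissue, had 0 reads in the combination, 1 after anti-B7-H3, 31 after anti-PD1 and 42 in isotype control, beside expected backgrounds of 2.54, 0.334, 19.2 and 26.7. Ccl19, a chemokine of lymph node stroma, had 2, 30.8, 49.8 and 38.1 reads in the same order, and Cxcl13, the chemokine of B cell follicles, had 4, 10, 4 and 1. Madcam1 and Cxcl13 are named as markers and were picked after their values were seen. The summed level of the list was 64.7 to 67.7 CPM in the combination, 98.1 to 105 after anti-B7-H3, 39.4 to 51.3 after anti-PD1 and 37.4 to 47.5 in isotype control. Reads of the list averaged 124 per isotype control library, beside an expected background of 89.3. Only 5 of the 12 listed genes were tested. Against isotype control, 3 of these were called higher and 1 lower in the combination (27.8% and 29.5% of all genes), and 4 higher and 1 lower after anti-B7-H3 (30.8% and 33.3%). Between the combination and anti-B7-H3, all 5 were lower in the combination (19.1% of all genes). Most of the 5 tested genes thus went with Ighm, which does not speak for the listed genes left untested. The part of such tissue in the immunoglobulin differences was not tested. Of 4 pigment genes tested, 3 were lower than isotype control in the combination and in anti-B7-H3 (29.5% and 33.3% of all genes). Tyr, the gene of tyrosinase, was at -1.76 ± 0.252 (adjusted p = 9.57e-09) and -6.10 ± 0.412 (adjusted p = 1.06e-21, and -5.45 without anti-B7-H3 replicate 1) in the same order.

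The genes most like Ighm in their level over the 12 libraries were Slc7a2, a transporter of cationic amino acids (Pearson r of log2 CPM 0.999, Spearman rho 0.937), Adam8, a membrane protease (r 0.998), Samhd1, a nucleotide hydrolase (r 0.998), Ctsz, a lysosomal protease (r 0.998) and Abca1, a cholesterol exporter (r 0.998), among 5390 genes with a mean of at least 10 CPM. Immunoglobulin genes and genes with predicted or clone names were left out before this ranking. The libraries fall into 4 groups, so these correlations describe a shared order of group means. Ighm had mean log2 CPM of 8.41 in the combination, 10.95 after anti-B7-H3, 5.69 after anti-PD1 and 4.78 in isotype control, and Slc7a2 had 6.69, 8.15, 5.40 and 4.90. The order of groups was the same for both, over a narrower range for Slc7a2.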

How the data were processed

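RNA of 12 tumour libraries was analysed. Libraries were made from RNA depleted of ribosomal RNA, by Illumina's TruSeq kit for total RNA, per the labels' protocols. The build GRCm38 and FastQC 0.11.8 are named, per the submitters' processing notes. How reads were assigned to transcripts, and whether strand was used, the sources used here do not say. The authors deposited, per the file headers, estimated counts and TPM for 58083 transcripts, mostly of coding length. TPM values were not used.

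Estimated counts were summed per gene through the GENCODE annotation of GRCm38 (22195 genes, 610 transcripts unmatched) and rounded for the fit. Differential expression used edgeR 4.0.16 in R 4.3.3 (TMM, filtering by expression, quasi-likelihood test with robust spread, 1 mean per group, all 12 libraries), with Benjamini-Hochberg adjustment over 13478 genes and calls under 0.05. Scaled CPM are reads per 1e+06 of the TMM-scaled library, and per-length values use effective lengths. Log2 CPM had a prior count of 2. Each adjusted p comes from this fit unless named otherwise. Shares were tested by exact permutation over libraries (Python 3.11.15, scipy 1.17.1, numpy 2.4.6). The fit was tested on simulated data. Intervals are 95% Wilson or exact intervals.

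Alternatives were DESeq2 1.42.0 size factors and Wald test, no filter, only the groups compared, a spread that is not robust, a replicate block and leaving out each library. Leaving out satellite-like genes and subtracting background were added after seeing the data. Every member was named, and of each other list at most 4 called genes with the largest change per comparison, besides genes whose choice is stated. Sequences came from the genome and annotation of GRCm38. The members and lists were chosen with earlier results of these data known.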

Additional observations from a re-analysis of the deposited data

Results flagged for a closer look

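Results were looked at again where the effect of both antibodies differed from the sum of the effects of each, by the interaction term of the edgeR fit over all 12 libraries. Ighg2b was above that sum by 3.96 (log2), with 109, 105 and 150 reads in combination libraries against at most 21 in any library of the other groups. Ighg3 was above it by 1.16. Ighm (-3.46), Igkc (-2.76), Iglc2 (-4.37) and Igha (-2.58) were below it. With expected background subtracted, Ighm (-3.04) and Igkc (-2.24) kept direction and call, and Ighg3 (0.53, adjusted p = 0.735) kept direction without the call. Iglc2, Igha and Ighg2b had 0 isotype control reads left and so no value. Groups of 3 libraries were not tested for a sample far from the others.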

How the results depend on the processing

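Over the log2 changes of members and named genes, DESeq2 size factors changed no call (81 the same). The DESeq2 Wald test kept 78 and lost 3 calls, and a spread that is not robust kept 79 and lost 2. With background subtracted, 52 were the same, 5 lost their call and 5 turned, and 19 (18 of members) had no value because a group was left with 0 reads in every library.

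The members called in anti-PD1 against isotype control, 5 in the fit as reported, were 3 with background subtracted and 2 with only the groups compared, where 3 members could be tested. Those called for the interaction, 6 as reported, were 3 with background subtracted. In each of these counts of 3, 1 member had a group at 0 reads (Ighe and Iglc2). Leaving out each library gave 3 to 6 members for anti-PD1 against isotype control, 5 to 7 for the interaction, 6 to 6 for anti-B7-H3 and 7 to 7 for the combination against isotype control, 7 to 7 for the combination against anti-B7-H3, 7 to 8 against anti-PD1, and 6 to 7 for anti-B7-H3 against anti-PD1.

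Over all genes, calls without a filter were 15865 in the combination, 16711 in anti-B7-H3 and 10021 in anti-PD1 against isotype control, 11406 in the combination and 14594 in anti-B7-H3 against anti-PD1, and 7352 for the interaction, against 7727, 8641, 5164, 6271, 8356 and 4900 as reported. For anti-PD1 against isotype control they were 3013 with background subtracted and 8566 without satellite-like genes. Leaving out each library gave 6634 to 8605 in the combination, 7723 to 9449 in anti-B7-H3 and 3976 to 6028 in anti-PD1 against isotype control, 4575 to 5357 in the combination against anti-B7-H3, 5252 to 6832 in the combination and 7476 to 8969 in anti-B7-H3 against anti-PD1, and 4218 to 5142 for the interaction.

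Without a filter the median over all genes moved to -0.69 in the combination, -0.78 in anti-B7-H3 and -0.48 in anti-PD1 against isotype control, and with background subtracted to 0.25, 0.27 and 0.16. The share of calls that were higher, 48.5%, 48.0% and 45.6% as reported in the same order, was 36.1%, 35.3% and 37.1% without a filter and 62.1%, 60.1% and 61.9% with background subtracted. Against anti-PD1 it was 49.8% in the combination and 49.0% in anti-B7-H3, or 38.8% and 35.5% without a filter. In the combination against anti-B7-H3 it was 50.9%, or 60.7% (3508 of 5777) without satellite-like genes. For the interaction it was 52.5%, or 42.1% with background subtracted.

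Changes that turned with background subtracted were Igha in the combination against anti-PD1 (0.80, over 2 reads left), Ighg3 in the combination (1.41) and anti-B7-H3 (1.48, both over 5 reads left) and Igkc in anti-PD1 (-0.43) against isotype control, and the Ighg1 interaction (0.59). The cause was not tested. Ighg3 against isotype control also turned, from values near 0, without a filter (0.14 in the combination and 0.21 in anti-B7-H3) and without satellite-like genes (0.11 and 0.13). Leaving out each library gave ranges that cross 0 for Ighg3 in the combination (-0.58 to 0.0652) and in anti-B7-H3 (-0.52 to 0.12) against isotype control and in the combination against anti-B7-H3 (-0.15 to 0.0682), for Ighg2b in anti-B7-H3 (-0.72 to 0.0341) and Igkc in anti-PD1 (-0.098 to 0.19) against isotype control, and for the Ighe interaction (-0.87 to 0.00629). None of these was called in the fit as reported.

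For the shares, the differences are the combination minus anti-B7-H3 in percentage points. Each adjusted p beside them is of the permutation test over all groups kept, not of that difference. The Igha test lost its call with background subtracted (difference -0.195, adjusted p = 0.175). The Igkc test gained one with the treated groups alone (1.93, adjusted p = 0.00357), with background subtracted (1.95, adjusted p = 0.00381) and without isotype control replicate 1 (1.93, adjusted p = 0.00305). Leaving out each library gave -4.16 to -4.01 for Ighm, 4.18 to 4.29 for IgG, -0.196 to -0.143 for Igha and 1.74 to 2.21 for Igkc.

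Same-numbered libraries did not deviate together (18 correlations of -0.0361 to 0.0435). The median chi-square within groups was 0.546 to 0.861, where counting noise alone gives 0.455. The summed chi-square within groups was 1.37 to 3.06 per gene, so deviations held counting noise and a spread beyond it. The correlations of same-numbered libraries cannot show that the libraries are unpaired. With a replicate block, 7 members were called in the combination, 6 in anti-B7-H3 and 5 in anti-PD1 against isotype control, 7 in the combination against anti-B7-H3, 7 in the combination and 7 in anti-B7-H3 against anti-PD1, and 6 for the interaction, against 8 without the block in the combination against anti-PD1 and the same counts elsewhere. Ighd, Ighg2c and Ighe had 2 to 35 reads in each group and stood at 0.521 to 1.67 times expected background in anti-PD1 and isotype control, so both depth and background limit them.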
